A study of Arabidopsis thaliana with 48 samples.

Results

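Described here are 9 genes of Arabidopsis thaliana. Of these, 7 are superoxide dismutase genes: CSD1 (AT1G08830), CSD2 (AT2G28190), CSD3 (AT5G18100), FSD1 (AT4G25100), FSD2 (AT5G51100), FSD3 (AT5G23310) and MSD1 (AT3G10920). The others are the copper chaperone gene CCS (AT1G12520) and the transcription factor gene SPL7 (AT5G18830). MSD2 (AT3G56350), of the same family by name, is not among them. The 9 genes were listed by locus and not by a cut on measured values, though earlier results of these data were known. They are 9 of the 33211 features in the count table, and all 9 had enough reads to be tested among 22252 genes. RNA was sequenced from the above-ground parts of Col-0 plants that either carried the spider mite Tetranychus urticae, an arthropod that pierces and empties leaf cells, or carried none. Infested plants had received 20 adult females each at an age of 3 weeks, and control plants received 0 and were kept in parallel, each plant under its own cylinder. Both were cut after 30 min and 24 h, and then on days 4, 7, 12 and 15, which gave 12 groups of 4 libraries, 48 in all, each made from 4 pooled plants. All plants shared the Col-0 background and carried no transgene or mutation that the labels mention.

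Superoxide dismutases turn superoxide, a reactive by-product of photosynthesis, respiration and the oxidative burst, into hydrogen peroxide. CSD1 works in the cytosol, CSD2 in chloroplasts and CSD3 in peroxisomes, and all of these use copper and zinc, with copper loaded by CCS. FSD1, FSD2 and FSD3 use iron, the last pair inside chloroplast nucleoids, and MSD1 is the manganese enzyme of mitochondria. When copper is scarce, SPL7 is known to bind GTAC motifs and to switch on FSD1 and the microRNA miR398, whose targets include the transcripts of CSD1, CSD2, CCS and the cytochrome oxidase subunit gene COX5b-1. The iron enzyme FSD1 then stands in for CSD2, which spares copper for plastocyanin, and the exchange runs the other way when copper is ample.

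The mature sequences of miR398 are shown with the best pairing site in each of its known target transcripts named above. In the microRNAs the capitals mark the seed, bases 2 to 8. RefSeq places miR398a-3p at chr2:1041012-1041032, and the identical miR398b-3p and miR398c-3p at chr5:4691107-4691127 and chr5:4694778-4694798, all on the plus strand of TAIR10.1.
miR398a-3p: uGUGUUCUcaggucaccccuu
miR398b-3p and miR398c-3p: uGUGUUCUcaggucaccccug
All of these share 1 seed. In the transcript sites below, written as DNA from 5′ to 3′, capitals mark bases that pair with the microRNA without a gap, G:U pairs being counted as unpaired.
CSD1: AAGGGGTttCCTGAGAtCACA
CSD2: tgcGGGTGACCTGgGAAacat
CCS: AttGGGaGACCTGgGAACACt
COX5b-1: AAGGtGTGACCTGAGAAtcac
The CSD1 site lies in the 5′ UTR of its transcript and runs across a splice junction. The COX5b-1 site lies in the 5′ UTR at chr3:5299204-5299224. The CSD2 site is in coding sequence at chr2:12015572-12015592, and that of CCS in coding sequence at chr1:4267521-4267541 on the minus strand. With 1 penalty point per mismatch and 0.5 per G:U pair, CSD1 scored 3, and 3 of 27440 genes had a site scoring as low. CCS and COX5b-1 scored 4.5, as low as 75 genes. The CSD2 site scored 6.5, which 5921 genes matched, so letters aligned without a gap do not set it apart. FSD1, which is not a known target, scored 5.5, a score reached by 857 genes. SPL7 scored 6.5, the same as CSD2, and the copper enzyme gene CSD3 scored 7, a score reached by 12093 genes.

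The promoters of FSD1 and MIR398B are shown for the GTAC core that SPL7 binds. The first is the 250 bases before the annotated start of FSD1, at chr4:12887012-12887261 on the minus strand, and the second the 250 bases before the annotated MIR398B hairpin, at chr5:4690772-4691021 on the plus strand of TAIR10.1, with each GTAC in capitals.
FSD1: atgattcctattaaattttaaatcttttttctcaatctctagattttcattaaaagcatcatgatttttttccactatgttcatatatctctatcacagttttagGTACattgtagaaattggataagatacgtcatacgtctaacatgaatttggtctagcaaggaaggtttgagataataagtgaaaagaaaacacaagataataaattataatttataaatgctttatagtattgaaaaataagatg
MIR398B: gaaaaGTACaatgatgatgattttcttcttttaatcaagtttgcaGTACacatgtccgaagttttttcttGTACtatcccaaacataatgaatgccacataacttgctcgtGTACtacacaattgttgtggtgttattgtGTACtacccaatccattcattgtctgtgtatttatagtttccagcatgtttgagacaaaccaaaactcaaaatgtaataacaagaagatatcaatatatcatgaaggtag
GTAC reads the same on the other strand, so 1 search covers both. MIR398B held 5 copies and FSD1 held 1, while MIR398C held 3 and MIR398A held 0. Of 16 listed genes known for copper limitation, 8 had a copy. At least 1 copy stood in 34.3% of 27443 protein-coding windows of the same length, and at least 4 copies in 0.266%. Of the 9 genes, 4 had a copy (FSD1, CSD1, CSD3 and CCS). These matches describe letters in a window, and they were not tested as binding sites.

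Among the 9 genes, levels can be compared per length, here as scaled counts per M (CPM) per kilobase of exon, averaged over the 12 groups. FSD1 was the highest with 351 CPM per kb, its group means lying between 211 and 532. CSD2 and CSD1 came next with 252 and 216, and their group means spanned 3.62 and 3.41 times from the lowest to the highest group. MSD1 stood at 112 and hardly varied, its highest group mean being 1.25 times its lowest. CCS had 59, CSD3 49.1 and FSD3 34.3 CPM per kb. FSD2 and SPL7 were lowest, with group means between 7.27 and 20.4 and between 7.99 and 21.3. The ranges of neighbours in this order overlapped, apart from MSD1, whose range lay above those of CCS and all genes after it.

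**Figure D1:**
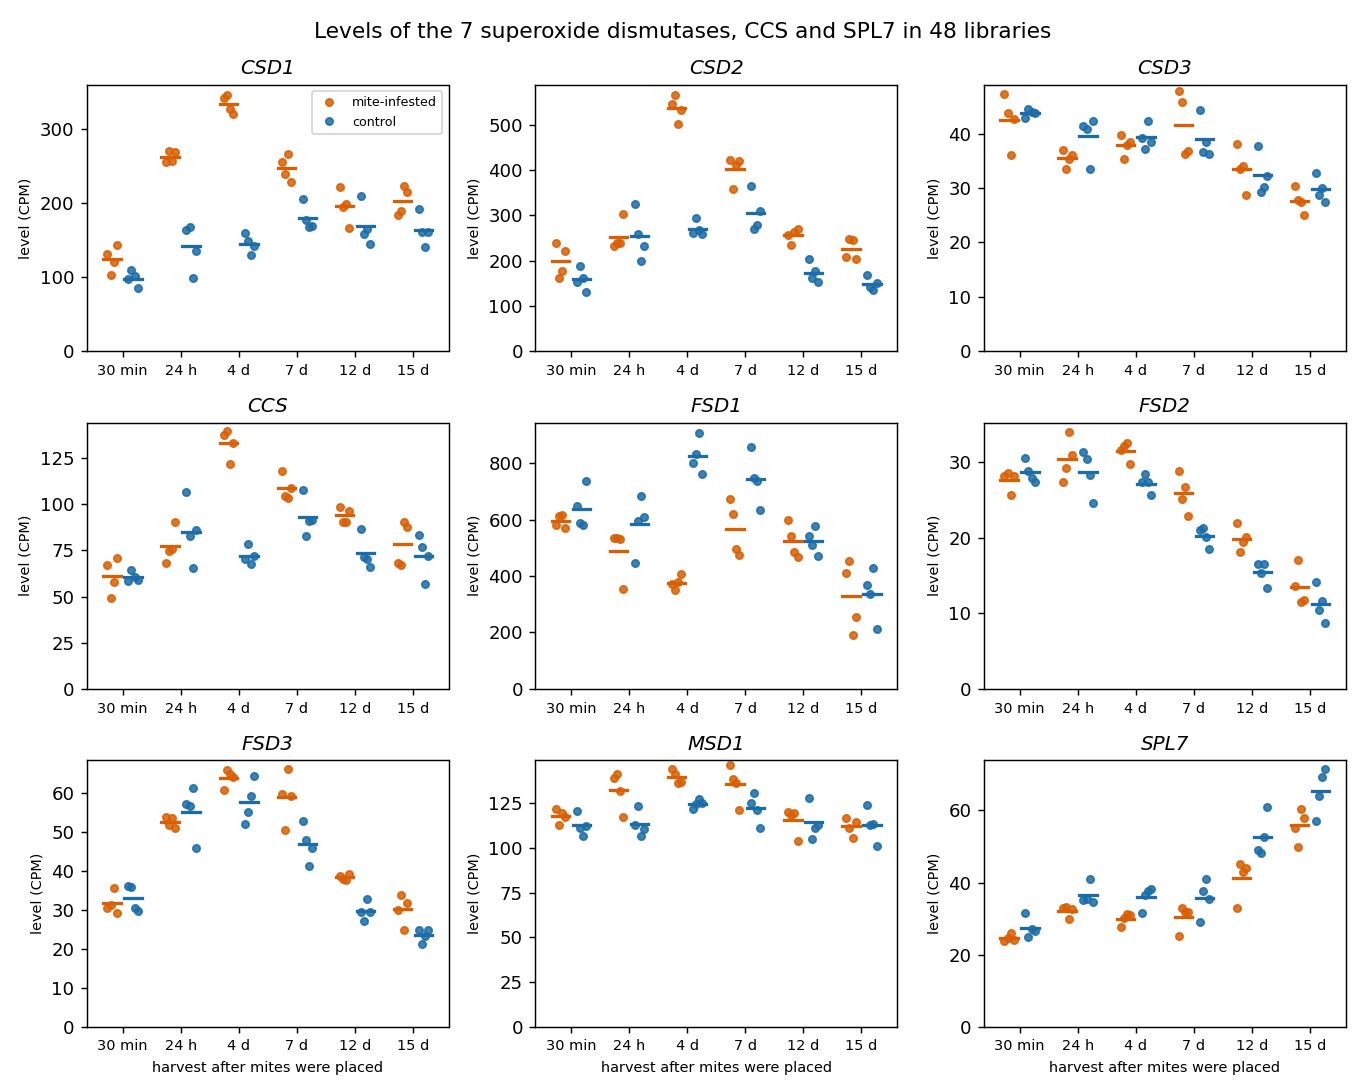
Level of each of the 9 genes in CPM (vertical axes, each from 0) at the 6 harvests (horizontal axes), with 4 mite-infested libraries in orange left of 4 control libraries in blue, points being libraries and lines their means. CSD1, CSD2 and CCS peak in infested plants at 4 d, where FSD1 lies between 349.8 and 407.8 CPM, below all control libraries.

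At 4 d infested plants carried more transcript of the cytosolic and chloroplast copper enzymes and of their chaperone, and less of the iron enzyme FSD1. CSD1 had 342.8, 346.8, 327.3 and 320.8 CPM in infested plants, against 159.3, 148.2, 129.3 and 142.5 CPM in control plants. Every infested library was above every control library, and the log2 fold change was 1.21 (SE 0.12, adjusted p = 3.1e-10 by edgeR's quasi-likelihood test, as are all adjusted p-values of genes below). CSD2 had 547.3, 566.7, 503 and 532.6 CPM in infested plants and 262.2, 295.4, 266.9 and 258.4 CPM in control plants. The groups did not overlap, and its log2 fold change was 0.99 (SE 0.12, adjusted p = 4.4e-08). CCS, which delivers copper to these enzymes, had 137.5, 139.7, 122 and 133 CPM in infested plants and 70.32, 78.72, 67.6 and 71.92 CPM in control plants. Again no libraries overlapped, with a log2 fold change of 0.88 (SE 0.12, adjusted p = 2e-07).

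FSD1 moved the opposite way at 4 d. Its infested libraries had 373.3, 349.8, 377.8 and 407.8 CPM, against 801.3, 833.3, 908.2 and 760.7 CPM in the control libraries. The highest infested library was well below the lowest control library, and FSD1 fell by 1.13 on the log2 scale (SE 0.18, adjusted p = 1.1e-05). With 3 genes higher and 1 lower, 4 of the 9 genes passed the threshold of 0.05, against 16.4% of all genes tested at this harvest, of which 8.68% were higher and 7.68% lower. The groups of these 4 genes did not overlap, and neither did those of FSD2, MSD1 and SPL7, while those of CSD3 and FSD3 did. Of all genes, 25.7% had groups that did not overlap. Ordered by p-value among 22252 genes, CSD1 ranked 37, CSD2 158, CCS 241 and FSD1 542. Their calls at 4 d held in each of the 14 alternatives run for that harvest. The summed leaf markers (RBCS1A, LHCB2.1, RCA and GAPA) were lower at the same time, between 31000 and 33100 CPM in infested and between 36800 and 39900 CPM in control plants at 4 d, with 0 of 4 higher and 2 lower. Their part in these differences was not tested.

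The remaining genes stayed short of the threshold at 4 d. The log2 fold change of MSD1 was 0.17 (adjusted p = 0.097), with FSD2 at 0.21 (adjusted p = 0.16), while FSD3 was at 0.14 and CSD3 at -0.06. SPL7 had 27.55, 30.02, 31.18 and 30.98 CPM in infested plants and 31.66, 36.66, 37.77 and 38.27 CPM in control plants. All infested SPL7 libraries were below all control libraries, yet its log2 fold change of -0.27 had an adjusted p of 0.055. A fit of the 8 libraries of this harvest alone, with a spread of its own, called 7 of the 9 genes by adding MSD1 (adjusted p = 0.0096), FSD2 (0.015) and SPL7 (0.0071).

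**Figure D2:**
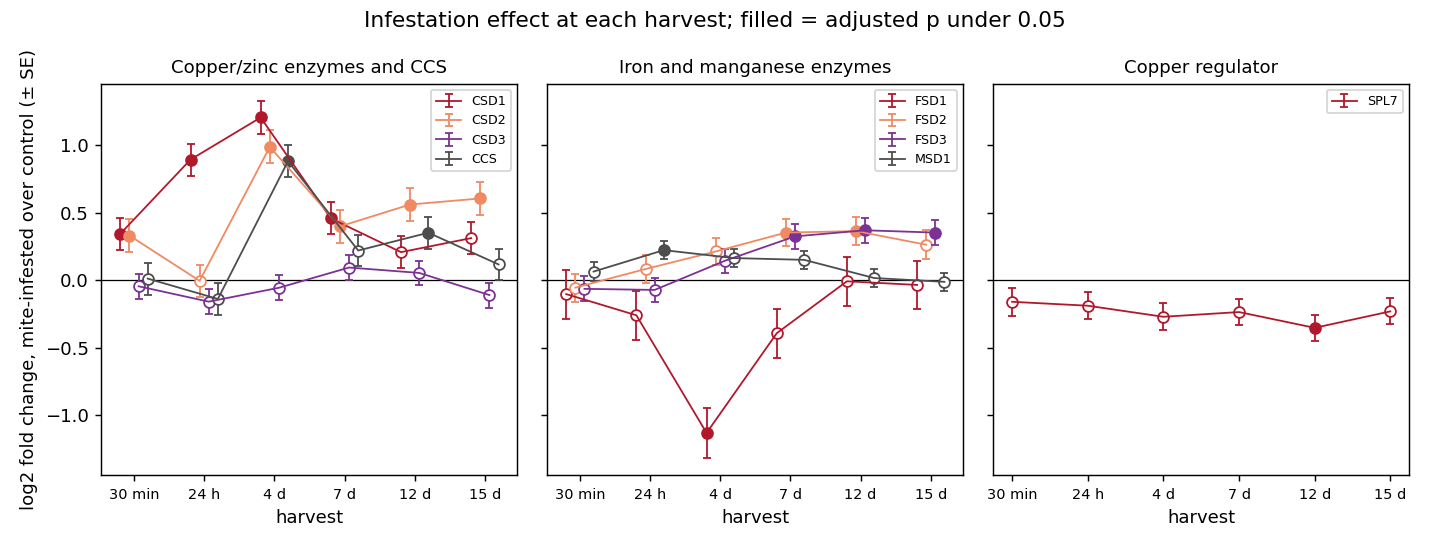
Log2 fold change of mite-infested over control plants (vertical axis, bars are SE of the fit) at each harvest (horizontal axis) for the copper/zinc enzymes with CCS, the iron and manganese enzymes, and SPL7, filled points having an adjusted p under 0.05. CSD2 and CCS stand near 0 at 24 h and at 0.99 and 0.88 at 4 d, where FSD1 is at -1.13.

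CSD1 was the earliest of the copper enzymes to differ clearly. At 24 h it had 255.2, 270.9, 257.4 and 268.7 CPM in infested plants and 163.6, 168.1, 98.67 and 135.5 CPM in control plants. The groups stood apart, with a log2 fold change of 0.90 (SE 0.12, adjusted p = 1.1e-07). Together with MSD1 it made 2 of 9 genes past the threshold, against 23.2% of all genes. The CSD1 effect was larger at 24 h than at 30 min by 0.55 (SE 0.17, adjusted p = 0.025), a change that CSD1 alone of the 9 genes passed, against 11% of all genes. That call ended when infested replicate 2 or control replicate 2 at 30 min, or control replicate 3 or control replicate 4 at 24 h, was left out (adjusted p = 0.072, 0.063, 0.084 and 0.05).

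At 30 min CSD1 and CSD2 passed the threshold by a small margin, 2 of 9 genes against 23% of all genes. CSD1 had 131.3, 103.2, 120.7 and 143.3 CPM in infested plants and 96.88, 109.2, 101 and 85.45 CPM in control plants, ranges that overlap (log2 fold change 0.34, SE 0.12, adjusted p = 0.029). CSD2 had 238.6, 160.9, 176.8 and 221.9 CPM in infested plants and 152.7, 189.1, 162.4 and 130.2 CPM in control plants, which also overlap (log2 fold change 0.33, SE 0.12, adjusted p = 0.042). Neither call survived leaving out infested replicate 1 (adjusted p = 0.077 for CSD1 and 0.22 for CSD2), infested replicate 4 (0.14 and 0.14), control replicate 1 (0.061 and 0.097) or control replicate 4 (0.12 and 0.19), and CSD2 also failed without control replicate 3 (0.065). Under scaling by library totals the values were 0.065 and 0.082, and with no filter on low counts 0.058 and 0.085. Infested libraries of this harvest were the shallowest, with 13.7 ± 1.04 M counts against 19.3 ± 1.57 M in control plants (SD, n = 4 each).

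CSD2 and CCS stayed level at 24 h and separated between 24 h and 4 d. At 24 h CSD2 averaged 253.1 ± 33.1 CPM in infested plants and 253.9 ± 52.8 CPM in control plants (SD, n = 4 each), a log2 fold change of 0.00. CCS was at -0.14 (SE 0.12, adjusted p = 0.46). From 24 h to 4 d the effect on CSD2 grew by 0.99 (SE 0.17, adjusted p = 9e-05) and that on CCS by 1.02 (SE 0.17, adjusted p = 3.1e-05). The FSD1 effect changed by -0.87 (SE 0.26, adjusted p = 0.047), which makes 3 of 9 genes against 3.36% of all genes. The FSD1 change missed the threshold in 16 of 21 alternatives, with adjusted p-values up to 0.14, among them the fits without any 1 of the 8 libraries at 4 d, and without infested replicate 1, 2 or 3 or control replicate 1, 2 or 4 at 24 h. Consecutive changes of this kind share the libraries of the middle harvest.

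From 4 d to 7 d the differences shrank. The effect at 7 d less that at 4 d was -0.75 for CSD1 (SE 0.17, adjusted p = 0.007), -0.66 for CCS (SE 0.17, adjusted p = 0.015) and -0.59 for CSD2 (SE 0.17, adjusted p = 0.042). These are 3 of 9 genes, against 3.57% of all genes, and the CSD2 call was lost in 13 of 21 alternatives (adjusted p up to 0.093). Among these were the fits without infested replicate 1, 2 or 4 or control replicate 1, 3 or 4 at 4 d, and without infested replicate 2, 3 or 4 or control replicate 1 or 3 at 7 d. For FSD1 the change was 0.74 (SE 0.26, adjusted p = 0.099). Tested over all 6 harvests together, the infestation effect varied for CSD1 (adjusted p = 7.2e-06), CCS (3.9e-05), CSD2 (0.00026), FSD1 (0.0028) and FSD3 (0.0037), 5 of 9 genes against 41.1% of all genes. It did not pass for CSD3, FSD2, MSD1 or SPL7. Between 12 d and 7 d, and between 15 d and 12 d, 0 of the 9 genes changed their effect past the threshold, while 2% and 0.706% of all genes did. At an unadjusted p under 0.05 the edgeR counts were 0 at each of these steps, and DESeq2 also called 0.

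At 7 d CSD1 was higher by a log2 fold change of 0.46 (SE 0.12, adjusted p = 0.0055) and CSD2 by 0.40 (SE 0.12, adjusted p = 0.02). CSD2 had 423.3, 359.5, 411.9 and 420.3 CPM in infested plants and 364.8, 269.7, 278.8 and 310.6 CPM in control plants, 1 control library reaching into the infested range. Its call ended without infested replicate 1 or 4 or control replicate 2 or 3, with adjusted p-values of 0.056, 0.053, 0.096 and 0.082. With FSD2 and FSD3 these made 4 of 9 genes, all higher, against 13.7% of all genes and 6.16% that were higher.

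CSD2 remained higher later on, while CSD1 no longer passed. At 12 d CSD2 had 257, 234.1, 263.4 and 271.1 CPM in infested plants, against 202.8, 161.3, 176.7 and 153.8 CPM in control plants. At 15 d it had 207.3, 248.1, 245.4 and 204 CPM in infested plants and 167.6, 141.4, 134.6 and 150.5 CPM in control plants. The groups did not overlap at either harvest, and the log2 fold changes were 0.56 (SE 0.12, adjusted p = 0.00095) and 0.61 (SE 0.12, adjusted p = 0.00043). CSD1 was at 0.21 (adjusted p = 0.24) and 0.31 (adjusted p = 0.056). In 3 of 14 alternatives CSD1 did pass at 15 d. These were DESeq2 (adjusted p = 0.043), no filter on low counts (0.045) and the fit without control replicate 1 (0.022). CCS passed at 12 d with 0.35 (SE 0.12, adjusted p = 0.031), a call that ended without infested replicate 1 or 4 or without control replicate 2, 3 or 4 (adjusted p between 0.069 and 0.12), and under library totals as the sole scaling (0.1).

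FSD1 did not differ past the threshold at any harvest other than 4 d. At 24 h its infested libraries had 533.6, 533.6, 530.1 and 355 CPM and its control libraries 446.7, 594.7, 685.6 and 609.3 CPM. Infested replicate 4 was the low one, and the groups overlapped (log2 fold change -0.26, adjusted p = 0.35). At 7 d FSD1 had 672.6, 621.6, 497 and 476.5 CPM in infested plants and 856.5, 748.1, 736.5 and 634.8 CPM in control plants, a log2 fold change of -0.39 (SE 0.18, adjusted p = 0.16). At 15 d the infested libraries split into 412.7 and 455.3 CPM on one side and 191.1 and 253.7 CPM on the other, and control libraries had 369.2, 336, 427.3 and 211.7 CPM, so that the spread within groups exceeded the difference of -0.03. At 30 min and 12 d the log2 fold changes were -0.10 and -0.01.

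A ratio of reads inside 1 library is free of any scaling between libraries. The ratio of CSD1 plus CSD2 reads to FSD1 reads had a median of 2.291 in infested plants at 4 d, with a range of 2.093 to 2.611, against a median of 0.527 and a range of 0.436 to 0.532 in control plants. On the log2 scale the group means differed by 2.199 with a pooled SD of 0.139. At 7 d the medians were 1.185 in infested and 0.636 in control plants, and at 12 d 0.868 and 0.628, in each case without overlap, with log2 differences of 0.827 and 0.418. The groups overlapped at 30 min, 24 h and 15 d, where the log2 differences were 0.429, 0.668 and 0.54. No p is given for this ratio, since it combines genes already described.

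**Figure D3:**
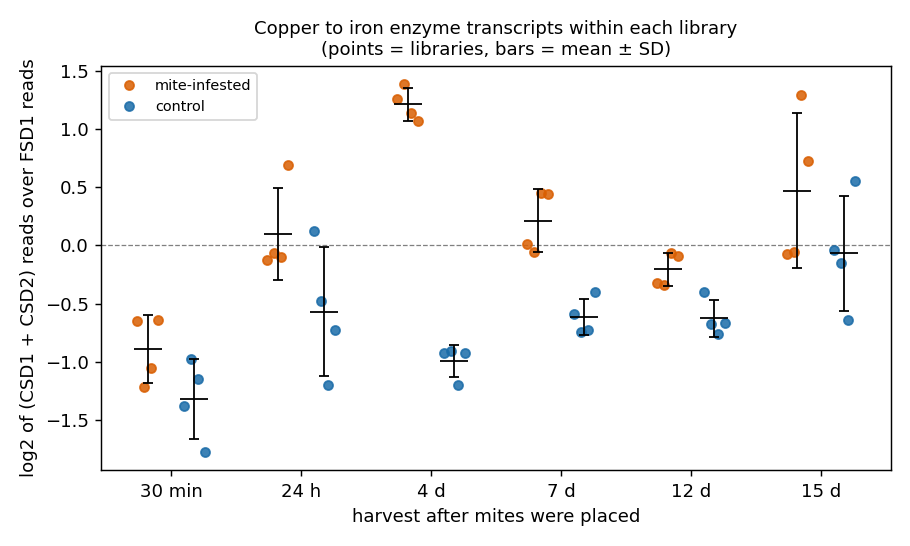
Log2 ratio of CSD1 plus CSD2 reads over FSD1 reads (vertical axis) in each library at the 6 harvests (horizontal axis), infested in orange left of control in blue, with bars for the mean ± SD of 4 libraries. At 4 d all infested libraries lie above 0 and all control libraries below it, the means being 1.21 and -0.989.

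Per length, FSD1 made up 17.5% ± 1.3 of the transcripts of the 7 enzymes in infested plants at 4 d and 44.8% ± 2.0 in control plants (SD, n = 4 each). CSD2 made up 36.8% ± 1.1 in infested and 21.7% ± 1.0 in control plants, and CSD1 27.6% ± 0.72 and 14.0% ± 1.5. The sum of the 7 enzymes was 1390 ± 31 CPM per kb in infested and 1190 ± 42 CPM per kb in control plants. By 15 d the sums were 831 ± 72 in infested and 714 ± 77 CPM per kb in control plants, and the FSD1 shares of 25.0% ± 7.8 and 30.0% ± 6.3 differed by less than their SDs.

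**Figure D4:**
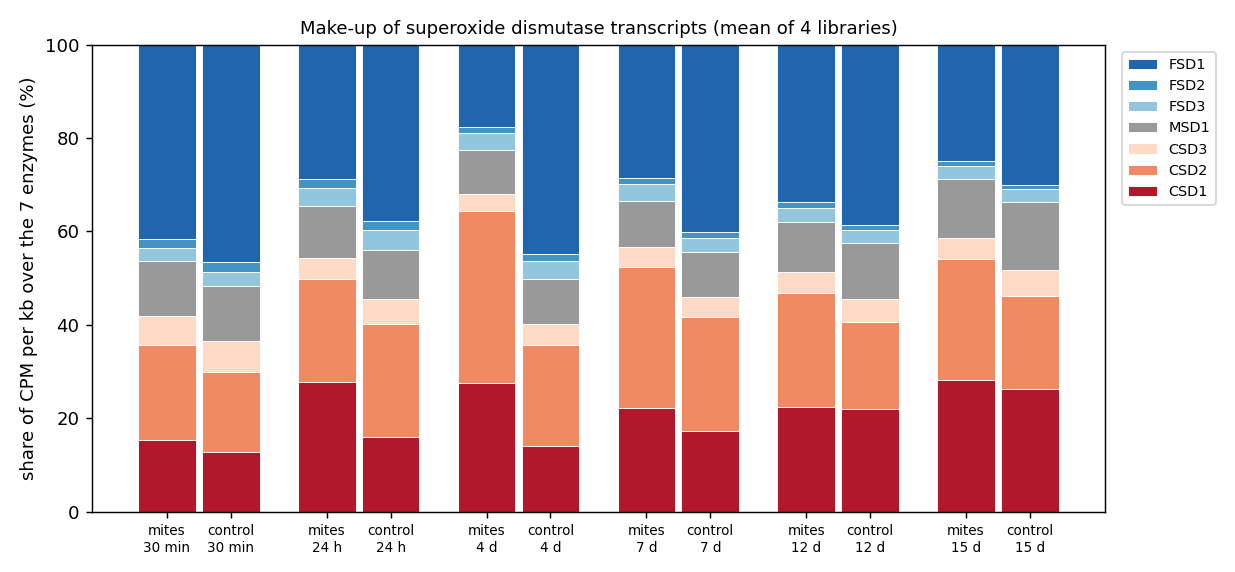
Share of each of the 7 superoxide dismutases in their summed CPM per kb (vertical axis, percent, mean of 4 libraries) in infested (left bar) and control plants (right bar) at each harvest. The FSD1 share at 4 d is 17.5% in infested and 44.8% in control plants, the widest gap of the 6 harvests.

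The plastid iron enzymes FSD2 and FSD3, which protect the chloroplast transcription machinery, followed another course. FSD3 had 38.55, 37.96, 37.73 and 39.06 CPM in infested plants at 12 d, against 29.46, 27.09, 32.69 and 29.32 CPM in control plants. The groups were apart at 12 d, while they overlapped at 7 d and 15 d. FSD3 was higher by 0.33 at 7 d (SE 0.09, adjusted p = 0.01), 0.37 at 12 d (SE 0.09, adjusted p = 0.0033) and 0.35 at 15 d (SE 0.09, adjusted p = 0.0057). FSD2 was higher by 0.35 at 7 d (SE 0.10, adjusted p = 0.015) and 0.36 at 12 d (SE 0.10, adjusted p = 0.012), and at 15 d it was at 0.26 (adjusted p = 0.082). Leaving out infested replicate 3 or control replicate 3 ended the FSD3 call at 7 d (adjusted p = 0.067 and 0.07). Fits of the 8 libraries of 1 harvest ended it at 7 d (0.086) and 15 d (0.065). The FSD2 calls ended without infested replicate 1 or control replicate 4 of the same harvest, with adjusted p-values of 0.074 and 0.054 at 7 d and 0.053 and 0.076 at 12 d. At 12 d 5 of the 9 genes passed, 4 higher and 1 lower, against 16.1% of all genes, of which 7.78% were higher and 8.3% lower. Under library totals as the sole scaling 3 passed. At 15 d 2 of 9 passed, CSD2 and FSD3, against 18.4%.

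The 11 listed partners of the plastid-encoded RNA polymerase, the complex that FSD2 and FSD3 associate with, were all measured. At 12 d 11 were higher and 0 lower, against 16.1% of all genes called, with a median log2 fold change of 0.377 against -0.02 over all genes. FLN2, a fructokinase-like subunit, was at 0.48 (SE 0.10, adjusted p = 0.00037) and PTAC12 at 0.47 (SE 0.10, adjusted p = 0.00094). The counts were 0 higher and 2 lower at 30 min, 0 and 5 at 24 h, 0 and 0 at 4 d, 4 and 0 at 7 d and 6 and 0 at 15 d. Of the 4 leaf markers 0 passed at 7 d, where FSD2 and FSD3 did, and 2 were higher at 12 d and 4 at 15 d, with 0 lower at these harvests. Their sum ranged from 27300 to 31200 CPM in infested plants at 12 d and from 22300 to 26000 CPM in control plants. Of 6 senescence markers 0 were higher and 2 lower at 7 d, 0 and 4 at 12 d and 0 and 1 at 15 d, against 13.7%, 16.1% and 18.4% of all genes called. SAG12 led at 12 d at -5.82 (SE 0.51, adjusted p = 2.4e-07). Earlier the counts were 0 and 1 at 30 min, 1 and 1 at 24 h and 1 and 1 at 4 d, against 23%, 23.2% and 16.4%. The senescence sum was 234 to 281 CPM in infested and 187 to 211 CPM in control plants at 24 h. At 4 d it was 235 to 267 CPM in infested and 196 to 208 CPM in control plants. What share of the FSD2 and FSD3 difference goes with leaf age was not tested. In whole aerial tissue, fewer cells of a kind and less RNA per cell cannot be told apart.

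CSD3 and MSD1 differed least between infested and control plants. CSD3, the peroxisomal enzyme, passed at 0 of 6 harvests between infested and control plants, its log2 fold changes lying between -0.16 and 0.10. MSD1 passed at 24 h alone, with 139.4, 141.5, 131.7 and 117.6 CPM in infested plants and 113, 123.6, 106.7 and 110.5 CPM in control plants. The libraries overlapped, the log2 fold change was 0.22 (SE 0.07, adjusted p = 0.013), and leaving out infested replicate 1 or 2 or control replicate 3 ended the call (adjusted p = 0.055, 0.066 and 0.059).

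SPL7, the copper-sensing regulator, was below control at each harvest in the fit, with log2 fold changes between -0.35 and -0.16, and passed at 12 d. There it had 33.02, 45.11, 42.89 and 44.01 CPM in infested plants, against 49.03, 48.07, 52.72 and 60.99 CPM in control plants, without overlap (log2 fold change -0.35, SE 0.10, adjusted p = 0.0089). Without infested replicate 1 or control replicate 4 the adjusted p was 0.068 and 0.072. A fit of the 8 libraries of 12 d alone ended the call too (adjusted p = 0.082). The effect on SPL7 did not vary over the harvests past the threshold (adjusted p = 0.86). In control plants SPL7 was higher at 12 d than at 7 d by 0.56 (adjusted p = 9.5e-06). The summed floral organ markers at 12 d ranged from 90.4 to 122 CPM in infested and from 131 to 147 CPM in control plants. Of these 7 markers 0 were higher and 1 lower, against 16.1% of all genes called. The part of plant development in the SPL7 difference was not tested.

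The other genes known for copper limitation stayed short of the threshold at 4 d. Of 16 listed, 9 had enough reads to be tested, and 0 passed at 4 d (2 at an unadjusted p under 0.05), against 16.4% of all genes. With 9 genes tested, a count of 0 does not stand apart from that share. At the other harvests 0 were higher and 1 lower at 30 min, 1 and 0 at 24 h, 0 and 0 at 7 d, 0 and 1 at 12 d and 0 and 2 at 15 d. Of all genes, 23%, 23.2%, 13.7%, 16.1% and 18.4% were called at these harvests, in the same order. Reads on MIR398B come from its precursor and not from the mature microRNA. MIR398B had 1.71, 1.63, 1.96 and 1.66 CPM in infested plants at 4 d, against 2.24, 2.23, 2.81 and 2.46 CPM in control plants. All infested values were lower, but the log2 fold change of -0.48 had an adjusted p of 0.2. MIR398B was lower at 30 min (1.53 ± 0.126 CPM in infested and 2.62 ± 0.333 CPM in control plants, log2 fold change -0.77, SE 0.27, adjusted p = 0.029) and was at 0.60 at 24 h (adjusted p = 0.057). MIR398C had 3, 0, 1 and 0 reads in infested and 7, 6, 2 and 2 reads in control plants at 4 d (adjusted p = 0.051). At 24 h it had 12, 8, 13 and 10 reads in infested and 4, 2, 6 and 5 reads in control plants (log2 fold change 1.47, SE 0.51, adjusted p = 0.028). MIR398A had 0 to 3 reads a library and was not tested.

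Among the further copper genes, COPT2, a copper importer, was at -0.07 at 4 d (adjusted p = 0.93), and the copper chaperone gene CCH at -0.20 (adjusted p = 0.17). CCH was lower at 15 d (log2 fold change -0.32, SE 0.10, adjusted p = 0.018). YSL2, a metal-nicotianamine transporter, was at -0.19 at 4 d (adjusted p = 0.58) and lower at 12 d, with 12.45 ± 1.51 CPM in infested and 21.4 ± 6.25 CPM in control plants (log2 fold change -0.78, SE 0.18, adjusted p = 0.0018). CITF1, a regulator of copper uptake, had 0 to 7 reads a library and was not tested. In the list of copper delivery and copper proteins, 1 of 20 genes was higher at 4 d and 0 lower, against 16.4% of all genes called. That gene was the miR398 target COX5b-1, at 67.4 ± 0.777 CPM in infested and 56.9 ± 1.39 CPM in control plants (log2 fold change 0.24, SE 0.08, adjusted p = 0.038). At 12 d 4 were higher and 6 lower, against 16.1% of all genes, among them the laccase genes LAC4 (-1.27), LAC12 (-1.23) and LAC2 (-1.14). LAC7 was at 0 in all infested libraries at 12 d and at 0.449 ± 0.348 CPM in control plants.

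**Figure D5:**
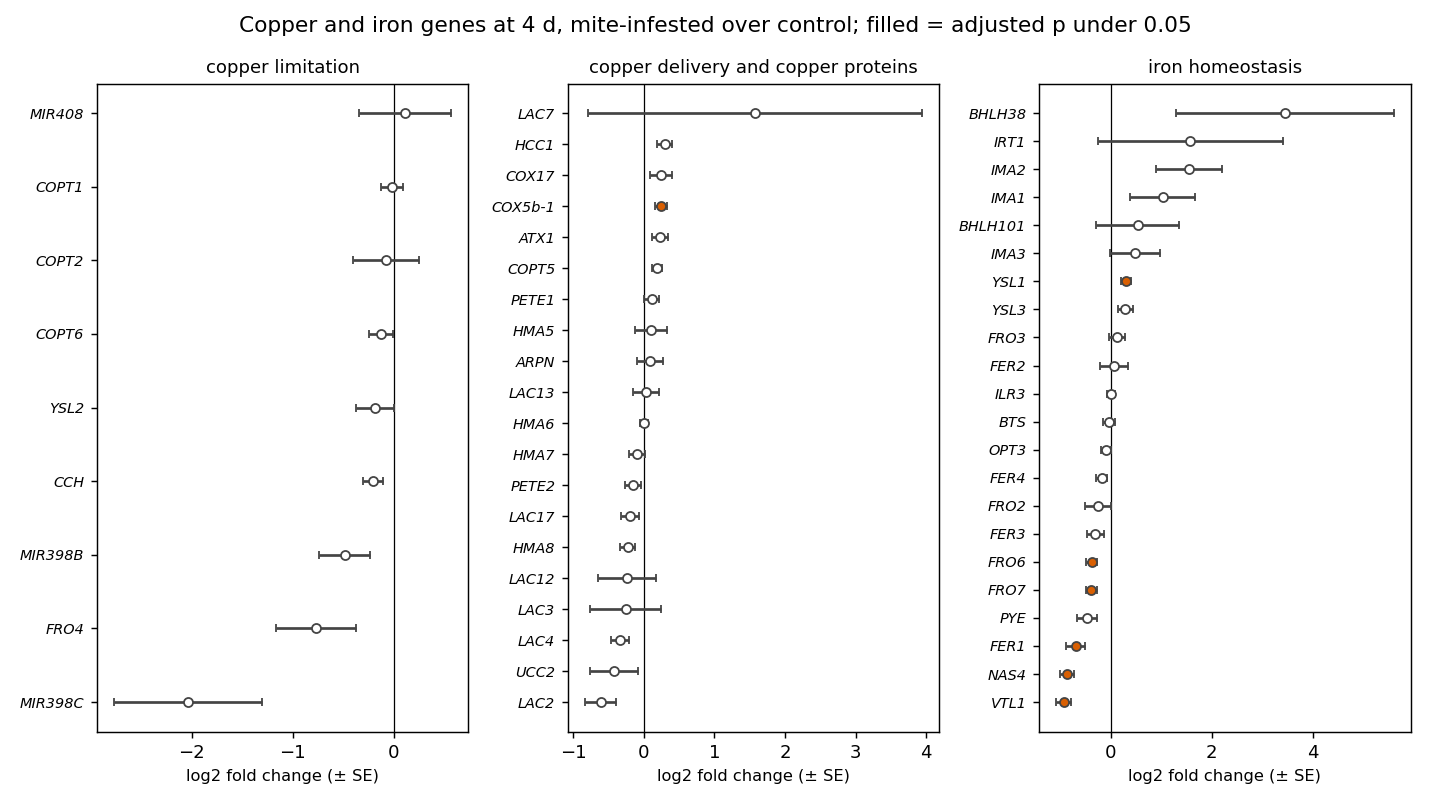
Log2 fold change of mite-infested over control plants at 4 d (horizontal axes, bars are SE) for the tested genes of the copper limitation, copper delivery and iron homeostasis lists (rows), filled points having an adjusted p under 0.05. No copper limitation gene is filled, COX5b-1 is the filled copper protein gene, and 1 iron gene is filled to the right and 5 to the left of 0.

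Iron genes were counted because FSD1 needs iron. Of 24 listed, 22 were tested, and at 4 d 1 was higher and 5 lower, against 16.4% of all genes called, with a median log2 fold change of -0.019 against -0.002 over all genes. VTL1, a vacuolar iron transporter-like gene, was at -0.94 (SE 0.15, adjusted p = 6.5e-06) and the nicotianamine synthase gene NAS4 at -0.87 (SE 0.14, adjusted p = 6.7e-06). The ferritin gene FER1, which stores iron in plastids, had 280 ± 69.8 CPM in infested and 454 ± 121 CPM in control plants (log2 fold change -0.70, SE 0.19, adjusted p = 0.0075). FER1 was lower at 7 d too, at -1.20 (SE 0.19, adjusted p = 1.8e-05). At 24 h 3 iron genes were higher and 5 lower, against 23.2% of all genes, with VTL1 at -1.01 and NAS4 at -0.95.

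Genes that make superoxide or remove the peroxide formed by these enzymes were counted in both directions. Of 16 tested, 3 were higher and 1 lower at 30 min, 6 and 5 at 24 h, 3 and 3 at 4 d, 2 and 2 at 7 d, 5 and 1 at 12 d and 5 and 2 at 15 d. Of all genes, 23%, 23.2%, 16.4%, 13.7%, 16.1% and 18.4% were called at these harvests, in the same order. RBOHD, the oxidase of the oxidative burst, was higher at 30 min (1.27, SE 0.15, adjusted p = 1.1e-08) and at 24 h (1.40, SE 0.15, adjusted p = 1.9e-09). At 4 d the dehydroascorbate reductase gene DHAR1 had 1234 ± 64.8 CPM in infested and 362 ± 125 CPM in control plants (log2 fold change 1.77, SE 0.29, adjusted p = 1.9e-05). The catalase genes parted: CAT3 was higher by 0.96 (SE 0.10, adjusted p = 3e-09), whereas CAT2, the photorespiratory catalase, fell by 0.55 (SE 0.10, adjusted p = 5.6e-05).

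In control plants 8 of 9 genes differed over the 6 harvests, near the 85.3% of all genes that did. MSD1 was the exception (adjusted p = 0.15), though with library totals alone it passed too (0.0091). Set against 30 min, control plants at 15 d had less FSD1, at 336 ± 91.1 CPM at 15 d and 639 ± 71.8 CPM at 30 min (SD, n = 4 each; log2 fold change -0.93, SE 0.18, adjusted p = 2.6e-05). FSD2 was lower by -1.36 (SE 0.11, adjusted p = 5.1e-15), CSD3 by -0.56 (SE 0.09, adjusted p = 1.2e-06) and FSD3 by -0.49 (SE 0.09, adjusted p = 1.1e-05). SPL7 was higher by 1.25 (SE 0.10, adjusted p = 6.6e-15) and CSD1 by 0.73 (SE 0.12, adjusted p = 6.9e-07), while CSD2 (-0.10) and CCS (0.25, adjusted p = 0.057) did not pass. That is 6 of 9 genes, against 64.9% of all genes, and under library totals as the sole scaling the median of all genes was 0.266 in this comparison, compared with 0.057. CCS then passed (adjusted p = 0.0007) and MSD1 too (0.0083).

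Step by step, control CSD2 rose at 24 h relative to 30 min (0.68, SE 0.12, adjusted p = 1e-05), as did FSD3 (0.74, SE 0.09, adjusted p = 4.1e-09), CSD1 (0.53), CCS (0.49) and SPL7 (0.41), 5 of 9 genes against 43.5%. From 24 h to 4 d 0 of the 9 passed by edgeR (2 at an unadjusted p under 0.05, and 1 by DESeq2), against 9.42%, and control FSD1 was at 0.50 (SE 0.18, adjusted p = 0.076). From 4 d to 7 d FSD2 (-0.42), FSD3 (-0.30) and CCS (0.37) passed, 3 of 9 against 9.79%, and from 7 d to 12 d 7 of 9 passed against 37.8%, led by CSD2 (-0.82, SE 0.12, adjusted p = 5.3e-07), FSD3 (-0.66) and SPL7 (0.56). The FSD1, CCS, CSD3 and FSD2 steps from 7 d to 12 d did not pass under library totals as the sole scaling (adjusted p = 0.12, 0.23, 0.35 and 0.07), and those of FSD1, CCS and CSD3 did not pass without control replicate 1 at 7 d (0.087, 0.09 and 0.1). At 12 d, leaving out control replicate 2 or 4 ended the FSD1 step (0.057 and 0.082), replicate 3 or 4 that of CCS (0.051 and 0.075) and replicate 2 or 3 that of CSD3 (0.083 and 0.068). The CCS step to 7 d was lost without control replicate 1, 3 or 4 at 4 d or 1 or 3 at 7 d, and that of FSD3 without replicate 3 or 4 at 4 d or 2 or 3 at 7 d (adjusted p up to 0.12 and 0.14). From 12 d to 15 d FSD1 (-0.65), FSD2 (-0.46), FSD3 (-0.33) and SPL7 (0.31) passed, 4 of 9 against 34.4%. Flower tissue entered the samples over the same time, the 7 summed floral organ markers ranging from 154 to 204 CPM at 15 d and from 3.98 to 7.08 CPM at 30 min in control plants. Between 30 min and 24 h, 4 of 13 clock genes were higher and 7 lower in control plants, against 43.5% of all genes called. The parts of plant age, flowers and the hour of harvest in these differences were not tested.

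Within groups, the deviations of libraries from their group means were compared for 6 pairs of genes over 48 libraries. CSD2 and CCS moved together (Pearson r = 0.757 and Spearman rho = 0.708, permutation test, adjusted p = 6e-05 for each, r = 0.69 without the 2 libraries farthest out). CSD1 and CSD2 did so as well (r = 0.689, rho = 0.633, permutation test, adjusted p = 6e-05 and 0.00027, r = 0.626 without 2). In the 24 infested libraries alone r was 0.428 for CSD1 and CSD2 (permutation test, adjusted p = 0.19, not past the threshold) and 0.65 for CSD2 and CCS (adjusted p = 0.05, not past it), and in the 24 control libraries 0.828 and 0.833 (adjusted p = 9e-05 for each). FSD1 and CCS went opposite ways (r = -0.473, rho = -0.389, permutation test, adjusted p = 0.037 and 0.051, r = -0.474 without 2). In the 24 infested libraries alone that r was -0.621 (permutation test, adjusted p = 0.05, not past the threshold), and in the 24 control libraries -0.327 (adjusted p = 0.43). The pairs FSD1 with CSD2 (r = -0.307, adjusted p = 0.057), FSD1 with SPL7 (-0.322, adjusted p = 0.054) and FSD1 with CSD1 (-0.245, adjusted p = 0.13) did not pass by the permutation test.

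Over the 12 group means, the genes whose pattern was most like each of 5 members, by Pearson r of mean log2 CPM among 17383 genes, were listed as a description. For FSD1 these were TPD1 (0.955), ER-ANT1 (0.926) and AT3G26085 (0.911). For CSD1 they were JAL23 (0.96), FMO GS-OX1 (0.955) and AT3G15720 (0.95), for CSD2 BOR5 (0.924), SQE6 (0.923) and EIF4E (0.923), and for CCS NRPB6B (0.902) and AT1G71430 (0.902). SPL7 was most like AT1G72200 (0.989), AT3G10910 (0.987) and NTMC2T6.1 (0.984). The 12 means share the same harvests and plant ages across genes.

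Libraries held 12.5 to 23.4 M counts (median 18.9 M), and 0 of 72 replicate pairs were identical. The labelled tissue was checked by 4 leaf markers, whose summed level lay between 15500 and 42500 CPM in every library. At 24 h their sum was between 26200 and 27500 CPM in infested and between 32800 and 36900 CPM in control plants, with 3 of 4 lower. Of the clock genes, which are counted because FSD1 transcripts are known to cycle through the day, 1 of 13 was higher and 3 lower at 4 d, against 16.4% of all genes called, and 1 higher and 5 lower at 24 h, against 23.2%. At 4 d CCA1, a morning clock gene, had 187 ± 2.31 CPM in infested and 251 ± 9.02 CPM in control plants (log2 fold change -0.43, SE 0.08, adjusted p = 0.00015), and LHY was at -0.29. At 24 h CCA1 was at -0.82 (SE 0.08, adjusted p = 3e-10). Their part in the FSD1 difference was not tested. Floral markers ranged from 11.4 to 22 CPM in infested and from 15.9 to 25.3 CPM in control plants at 4 d, with 0 of 7 passing. The 5 anther and pollen markers summed to 0 to 0.817 CPM in infested and 0 to 0.862 CPM in control plants at 4 d, with CYP703A2 at 0 in both, and 0 of 4 tested passed between infested and control plants at any harvest. In control plants they summed to between 17.4 and 29.6 CPM at 15 d and between 0 and 0.105 CPM at 30 min, with 4 of 4 tested higher. The 4 root markers summed to at most 3.34 CPM in any library, with EXPA7 at 0 throughout. The 1 root marker tested, RHD2, was higher in infested plants at 30 min (2.005 ± 0.34 CPM in infested and 0.385 ± 0.331 CPM in control plants, log2 fold change 2.33, SE 0.52, adjusted p = 0.00061) and at 24 h (log2 fold change 1.99, SE 0.51, adjusted p = 0.0029).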

How the data were processed

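The values analysed were whole-number counts per gene, deposited by the authors as 1 table for 48 libraries, from RNA of pooled aerial tissue, sequenced paired-end over 150 bases per the labels' protocols. Tools listed in the submitters' processing notes are DESeq2, HISAT2, featureCounts and fastp, with TAIR10 as the build, without versions, roles or strand setting, so it is unknown whether overlapping antisense genes share reads. Columns were matched to samples by the labels, and 0 columns of other samples were present.

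Tests used edgeR 4.0.16 (R 4.3.3) after filterByExpr by group and TMM scaling (factors from 0.908 to 1.147). All 48 libraries entered 1 robust quasi-likelihood fit holding a mean for every one of the 12 groups. Tests were two-sided, p-values were adjusted by Benjamini-Hochberg over all 22252 genes, the threshold was 0.05, and SE is the fitted change divided by the root of its F. CPM are scaled counts per M reads. The 9 genes had 198 to 18637 counts a library. Relations within groups used log2 CPM with a prior count of 2 and 100000 permutations of libraries within their group, for which 1e-05 is the smallest p. The 4 pools of a group are biological replicates per the labels.

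Replicate numbers were not used as pairs. On simulated counts of the 4 d comparison over 22104 genes, 64% of genes changed 1.5-fold, 88% of those changed 2-fold, 96% of those changed 4-fold and 90% of those changed 8-fold were recovered, with 8 of 177 calls on unchanged genes. The changed genes were a small part of all genes and were drawn from those above a floor of mean counts. In the real comparison 16.4% of genes were called, so these shares do not carry over to it. Alternatives were size factors, library totals, no filter, DESeq2 1.42.0, a replicate block, fits of 1 harvest and leaving out each library.

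Sequences and coordinates come from RefSeq's TAIR10.1 genome and annotation by locus, and a window of 250 bases was used for promoters. The 9 members, the gene lists (137 loci) and the tests were chosen with earlier results of these data known, so no adjustment over a list alone is given. Named genes were all 9 members, at most 4 of the largest changes of each list among those past the threshold, the MIR398 loci, CCH, COPT2, YSL2 and CITF1, and the 3 most alike genes of 5 members, where the mean log2 CPM had to reach 1, of which 1 is not reported here.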

Additional observations from a re-analysis of the deposited data

Results flagged for a closer look

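Among the 108 sets of 4 libraries formed by 9 genes and 12 groups, 8 held a library far from the other 3, where chance gives about 1 in 20. At 24 h infested replicate 4 was high for CSD2 with 302.6 CPM and low for FSD1 with 355 CPM. Control replicate 3 of 24 h was low for CSD3 with 33.47 CPM and high for SPL7 with 41 CPM. SPL7 was low in infested replicate 3 at 24 h with 29.87 CPM and in infested replicate 1 at 7 d with 25.23 CPM. FSD2 was low in infested replicate 3 at 30 min with 25.62 CPM, and MSD1 in infested replicate 4 at 12 d with 104 CPM.

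The infestation effect differed between neighbouring harvests for 7 results by the interaction contrast of edgeR's quasi-likelihood test. For CSD1 the effect at 24 h exceeded that at 30 min by 0.55 on the log2 scale (adjusted p = 0.025), and the effect at 7 d less that at 4 d was -0.748 (adjusted p = 0.007). For CSD2 the effect at 4 d exceeded that at 24 h by 0.993 (adjusted p = 9e-05), and the later step to 7 d was -0.589 (adjusted p = 0.042). CCS showed 1.021 (adjusted p = 3.1e-05) and -0.662 (adjusted p = 0.015) for the same steps. FSD1 showed -0.872 from 24 h to 4 d (adjusted p = 0.047).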

How the results depend on the processing

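Of the results for single genes, 873 kept their side of the threshold under another method, 21 lost and 15 gained a call, and leaving out 1 library kept 2147, lost 76 and gained 9. No direction of a called result was reversed. Of the 9 genes, the number past the threshold at 30 min was 0 with library totals only, 0 without a filter, and 1 from the 8 libraries of that harvest alone, against 2. It was 3 with library totals at 12 d, against 5, and the fits of 8 libraries gave 7 at 4 d, against 4, and 1 at 15 d, against 2, where FSD3 had an adjusted p of 0.065. Fits of 8 libraries called 1979 of all genes at 7 d, 2042 at 12 d and 1148 at 15 d. DESeq2 called 700 genes for the effect at 12 d less that at 7 d and 348 for 15 d less 12 d, against 446 and 157. Under library totals alone, the median log2 fold change of all genes at 12 d in the mite comparison was -0.102, against -0.02. For control plants at 12 d against 7 d it was 0.17, against 0.008.

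Without 1 library, the count of the 9 genes ranged from 0 to 2 at 30 min, 1 to 2 at 24 h, 2 to 5 at 7 d, 2 to 5 at 12 d and 2 to 5 at 15 d. Genes called ranged from 1997 to 3876 at 7 d, 2381 to 3549 at 12 d and 2103 to 5292 at 15 d. For the change of the effect they ranged from 346 to 1372 (7 d less 4 d), 258 to 653 (12 d less 7 d) and 81 to 540 (15 d less 12 d), and for control plants at 7 d against 4 d from 1104 to 2771.

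With the replicate number as a block, 1 of the 9 genes passed at 30 min, against 2, 6 at 4 d, against 4, 5 at 7 d, against 4, 4 at 12 d, against 5, and 3 at 15 d, against 2, and the block called 4069 genes at 4 d. It added SPL7 at 4 d (adjusted p = 0.015), 7 d (0.041) and 15 d (0.033), MSD1 at 4 d (0.048) and CCS for control plants at 15 d against 30 min (0.049). It ended the calls of CSD2 at 30 min (0.089) and CCS at 12 d (0.056), and those of the effect on FSD1 at 4 d less 24 h (0.064) and on CSD2 at 7 d less 4 d (0.091), and it changed no other call of the 9 genes. Deviations of same-numbered libraries correlated between -0.433 and 0.527, over 0.1 in 10 of 24 pairs, and the infested library correlated best with its own number in 10 of 24. At 4 d each infested library correlated best with its own number (r from 0.043 to 0.164), and at 24 h each did so with another number. In the 24 infested libraries alone r was -0.621 for FSD1 and CCS (adjusted p = 0.05), 0.428 for CSD1 and CSD2 (0.19) and 0.65 for CSD2 and CCS (0.05), by the permutation test, and in the 24 control libraries -0.327 for FSD1 and CCS (0.43). The log2 ratio difference at 12 d was 0.579 with CSD2 alone over FSD1, against 0.418. The cause of these shifts was not tested. Reads limit the MIR398 loci and CITF1, not the 9 genes.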
